A study of Mus musculus with 6 samples.

Results

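The genes described here are 31 targets of the hypoxia-inducible factors (HIFs) that act in mitophagy, lipid and glycogen storage, growth control and mitochondrial remodelling. They were taken by name from the count table, leaving aside Epo, glycolytic enzymes, vascular factors, carbonic anhydrases and dioxygenases. All 31 had a row among the 54532 named genes, and all 31 passed the filter on low counts that left 15225 genes for testing. The kidneys came from wild-type mice (WT) and from mice whose label is Lpar3-/-. That label names the loss of Lpar3, a receptor for the signalling lipid lysophosphatidic acid. There were 3 libraries per group. Animals of both groups had breathed 8% oxygen at normal pressure for 12 h. The sources used here give no strain, no age and no account of how the Lpar3 allele was made, and they do not say that each library came from its own animal. The p-values therefore measure the spread between these libraries, which may in part be technical. Every kidney was hypoxic, so the data compare genotypes under hypoxia and hold no measure of how far hypoxia itself had raised any gene.

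HIFs are pairs of an oxygen-regulated alpha subunit and a constant beta subunit. In oxygenated cells prolyl hydroxylases mark the alpha subunit, the von Hippel-Lindau protein binds it and it is destroyed. When oxygen is short the alpha subunit survives and the pair binds hypoxia response elements beside its targets. In the kidney, HIF-2 in interstitial fibroblasts drives Epo, which encodes erythropoietin, while HIF-1 is the main form in tubular cells. The targets described here let a cell clear mitochondria, burn less fuel, store fat and glycogen, and slow growth, and several of them feed back on the HIF pathway itself.

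The core of the response element is RCGTG, searched here as ACGTG and GCGTG on both strands. RefSeq promoter windows (GRCm38.p6), from 250 bases before to 50 after a start site, were at hand for 24 of the 31 genes, as 35 windows. ACGTG stood in 17 of these windows (48.6%), against 20.9% of the 21262 windows of protein-coding genes. GCGTG stood in 23 (65.7%, against 38.5%). At least 1 of the motifs stood in 27 (77.1%, against 49.3%). Windows of the same gene can overlap, as some of Ak4 do. Counted by gene, ACGTG stood in 16 of 24 (66.7%, against 23.2% of protein-coding genes) and either motif in 21 (87.5%, against 52.3%). The genes were chosen as known HIF targets, so these shares do not test that choice. ACGTG is part of the E-box CACGTG, which reads the same on both strands and stood in 8 windows (22.9%, against 7.84%). Shown next are the stretches upstream of the start site in the 4 genes with the lowest p between genotypes, because those genes come closest to a difference. Capitals mark every ACGTG or GCGTG on either strand (CACGT and CACGC where they lie on the other one), and bases inside annotated exons were left off. Wsb1 has a second RefSeq window, inside the gene (chr11:79243025-79243274 upstream of its start), which holds neither motif there and is not shown.

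Cited2, chr10:17722978-17723217, strand +: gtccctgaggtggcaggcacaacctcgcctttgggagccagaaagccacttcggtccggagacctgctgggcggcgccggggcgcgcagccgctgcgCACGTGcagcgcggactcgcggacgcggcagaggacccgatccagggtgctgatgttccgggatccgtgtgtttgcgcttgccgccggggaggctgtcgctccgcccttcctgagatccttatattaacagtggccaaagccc
Bnip3, chr7:138909520-138909756, strand -: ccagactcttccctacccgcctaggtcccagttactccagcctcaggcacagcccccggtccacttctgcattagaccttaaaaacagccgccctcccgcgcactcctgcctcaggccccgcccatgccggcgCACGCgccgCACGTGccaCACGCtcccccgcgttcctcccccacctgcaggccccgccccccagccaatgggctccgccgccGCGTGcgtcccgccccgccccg
Wsb1, chr11:79254696-79254945, strand -: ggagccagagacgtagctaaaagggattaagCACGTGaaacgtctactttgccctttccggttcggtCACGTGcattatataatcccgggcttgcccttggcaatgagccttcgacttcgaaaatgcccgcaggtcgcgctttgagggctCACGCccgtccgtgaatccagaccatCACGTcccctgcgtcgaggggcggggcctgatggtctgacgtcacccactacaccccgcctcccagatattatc
Ankrd37, chr8:45999868-46000100, strand -: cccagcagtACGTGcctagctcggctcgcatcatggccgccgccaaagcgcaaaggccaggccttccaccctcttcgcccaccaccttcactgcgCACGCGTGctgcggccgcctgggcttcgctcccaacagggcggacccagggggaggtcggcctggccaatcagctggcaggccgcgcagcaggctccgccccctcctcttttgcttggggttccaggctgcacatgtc

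A match is a description of these letters and does not show that HIF binds there. The Cited2 stretch held a single CACGTG. The Bnip3 stretch held a CACGTG between a pair of GCGTG cores on the other strand, and a further GCGTG nearer the start. The Wsb1 stretch held CACGTG in 2 places, and nearer the start a GCGTG and an ACGTG on the other strand. The Ankrd37 stretch held ACGTG once, and GCGTG on both strands where the copies overlap, and its window held a further ACGTG among the bases left off. The RefSeq start of Ankrd37 lies 5857 bases inside the gene as the deposited table delimits it.

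Total counts ran from 16011804 to 17991881 per library. Lpar3 (ENSMUSG00000036832), the targeted gene, had 36.4, 37.5 and 34.9 CPM (counts scaled to a common library size) in WT replicates 1 to 3, against 38.3, 37.3 and 33.5 CPM under the label Lpar3-/-. Its log2 fold change was 0.0033 (95% interval -0.17 to 0.18). The counts are per gene, not per exon. The groups overlapped at the targeted gene, so all directions below are those of the labels. Kidney markers were present in every library, with summed levels of the 9 proximal tubule markers from 21143 to 25083 CPM in WT and from 21498 to 22532 CPM in the libraries labelled Lpar3-/-. Within that list edgeR and limma-voom called 0 and DESeq2 called 2, Aqp1 and Slc5a12, both higher (22.2%, against 1.18% of all genes tested). By edgeR 4 had an unadjusted p below 0.05 (44.4%, against 9.18%), and 3 did not overlap (33.3%, against 13.7%). WT replicate 2 stood apart in tubular injury markers, whose 10 genes summed to 1412 CPM there and to 855 to 932 CPM in the other 5 libraries. The same library had the highest sum of the 10 macrophage markers, 180 CPM against 102 to 124. Fold changes, the libraries labelled Lpar3-/- over WT, were negative for 9 of 10 injury markers, with a median of -0.44 on the log2 scale. Of these 10, 6 had an unadjusted p below 0.05 (60.0%, against 9.18% of all genes tested). The 9 macrophage markers tested were all negative (median -0.55), 3 of them at that p (33.3%). In both lists edgeR, DESeq2 and limma-voom called 0. Of 6 loop of Henle markers, 4 (66.7%, against 6.58% of all genes tested) were higher without overlap in the libraries labelled Lpar3-/- (0 called by edgeR, 2 by DESeq2, Egf and Slc12a1, and 1 by limma-voom, Slc12a1), and the part of any of these cells in the HIF target values was not tested. Adipocyte markers differed in level between the groups and are given beside the lipid genes.

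No HIF target of the 31 passed the test between the genotypes. The edgeR quasi-likelihood test with Benjamini-Hochberg adjustment over all genes called 0 of them at an adjusted p below 0.05, DESeq2 called 0 and limma-voom called 0, where edgeR called 0.374% of all genes tested (0.25% lower and 0.125% higher). Without adjustment 5 of the 31 had a p below 0.05, against 9.18% of all genes tested (5.21% counting lower levels only). These were Cited2, Bnip3, Wsb1, Ankrd37 and Ppp1r3c, all with less RNA in the libraries labelled Lpar3-/-. Log2 fold changes, given throughout as the libraries labelled Lpar3-/- over WT, were negative for 20 of the 31 and for 51.1% of all genes tested. Their median was -0.084, against -0.0036 over all genes tested. For Wsb1, Ankrd37, Ppp1r3c and Slc16a3, and for other genes such as Higd1a, the value of WT replicate 2 was among those of the other group. Without it 22 of 31 were negative (against 51.1% of all genes tested) and edgeR called 1, Wsb1 (against 0.462% of all genes tested). An unadjusted p below 0.05 was then reached by 8 of the 31, 7 of them lower, against 8.88% of all genes tested. That library was picked from these same values, so these counts follow in part from the choice. With WT replicate 1 left out instead, 17 of the 31 were negative, against 50.1% of all genes tested. That p was reached by 2 of the 31, against 11.6% of all genes tested. Omitting replicate 1 or 3 of the other group also left 2 of the 31 (against 8.08% and 6.30% of all genes tested). Omitting WT replicate 3 or replicate 2 of the other group left 4 of the 31 (against 9.24% and 6.70% of all genes tested).

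The 95% intervals, each for 1 gene alone, give a range of fold changes from these 6 libraries. Leaving out 1 library moved the log2 fold change by over 1.5 times for 24 of the 31 genes. For 23 of the 31 genes the 95% interval of the fold change lay inside 1.5-fold in either direction, and for 26 it lay inside 2-fold. The 5 whose interval reached past 2-fold were Ppp1r3c, Ankrd37, Rcor2, Slc16a3 and Tmem45a, each below 6 CPM in every library. Epo, measured in the same libraries, had 3.89, 3.37 and 3.69 CPM in WT and 1.14, 0.945 and 1.10 CPM in the other group. Its log2 fold change was -1.77 (95% interval -2.34 to -1.21, edgeR adjusted p = 0.0136). The intervals of 27 of the 31 targets lay wholly above -1.21, the upper end of the Epo interval, the other 4 being Ppp1r3c, Ankrd37, Rcor2 and Tmem45a. The difference between these fold changes and that of Epo was not tested.

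**Figure D1:**
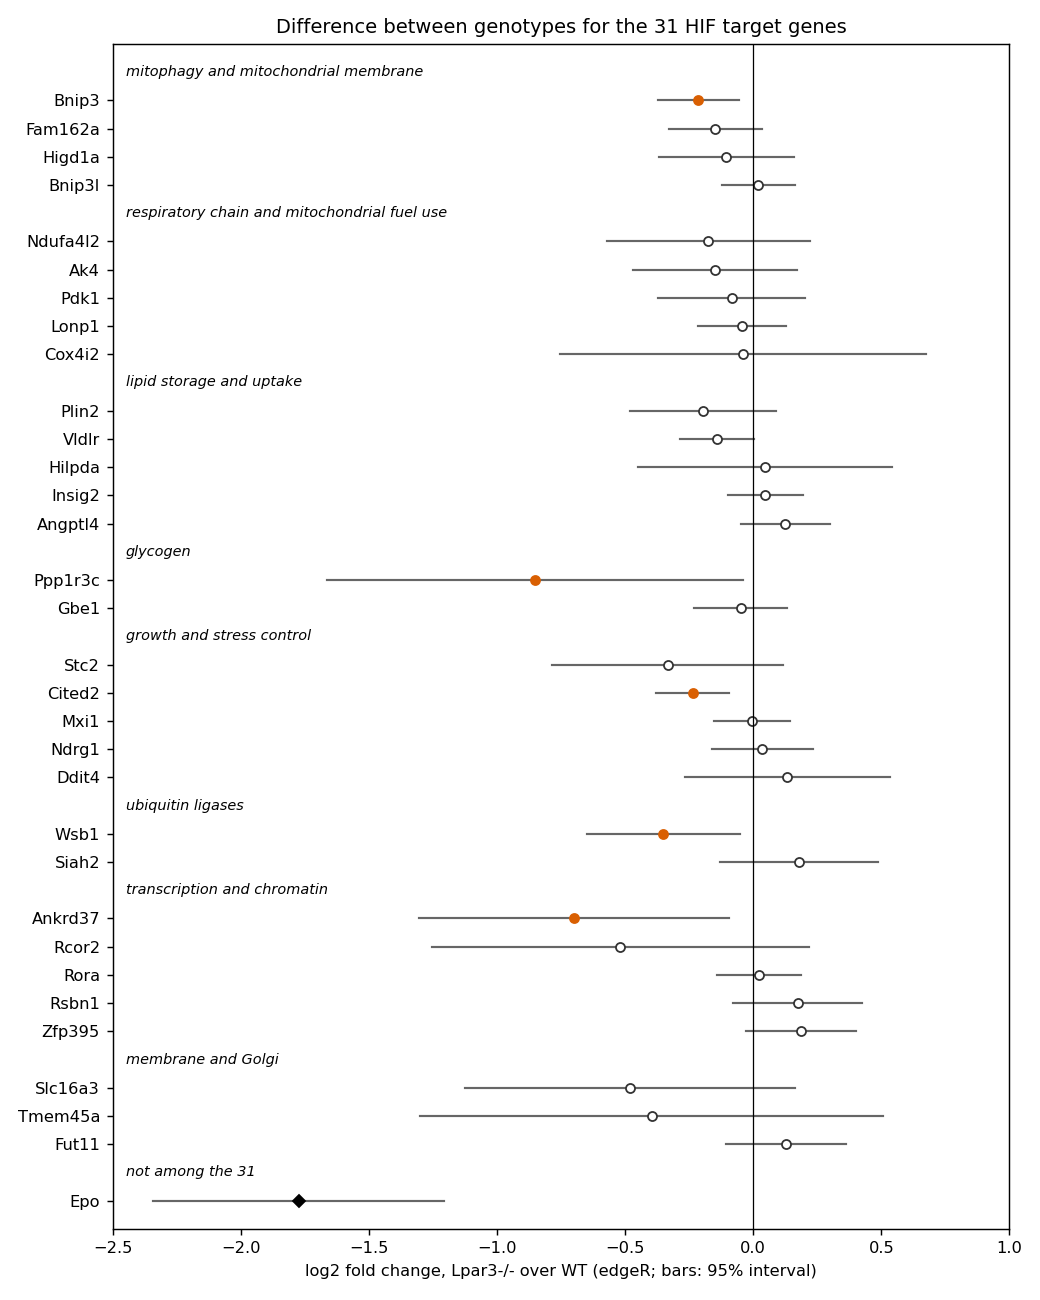
Log2 fold change (x axis, libraries labelled Lpar3-/- over WT) of each of the 31 HIF targets, grouped by role, with Epo below them; bars are 95% intervals from edgeR, and filled orange points are the 5 genes with an unadjusted p below 0.05. The points lie between -0.85 (Ppp1r3c) and 0.19 (Zfp395), and Epo lies at -1.77.

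Levels per gene length spanned a wide range, on the authors' FPKM scale (fragments scaled to gene length and library size). Ndrg1 stood highest, with 645 ± 69.2 FPKM in WT and 663 ± 39.5 in the libraries labelled Lpar3-/- (SD, n = 3 each, as for every ± here). Angptl4 followed with 92.2 ± 6.38 and 101 ± 6.84 FPKM, and then Bnip3 with 77.7 ± 5.63 and 67.1 ± 2.36. Ak4, Lonp1, Fam162a, Cited2, Plin2 and Bnip3l came next, with group means from 36.6 FPKM (Bnip3l, WT) to 55.3 FPKM (Ak4, WT). The libraries of Ndrg1, Angptl4 and Bnip3 did not overlap each other, while from Bnip3 to Bnip3l each gene overlapped its neighbour in that order. At the bottom, Stc2, Slc16a3, Tmem45a and Rcor2 had means below 1 FPKM in both groups, down to 0.377 ± 0.124 FPKM for Rcor2 in the libraries labelled Lpar3-/-. These low genes carry few reads. Rcor2 had 13 to 35 counts per library, Tmem45a 12 to 45 and Cox4i2 16 to 23.

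**Figure D2:**
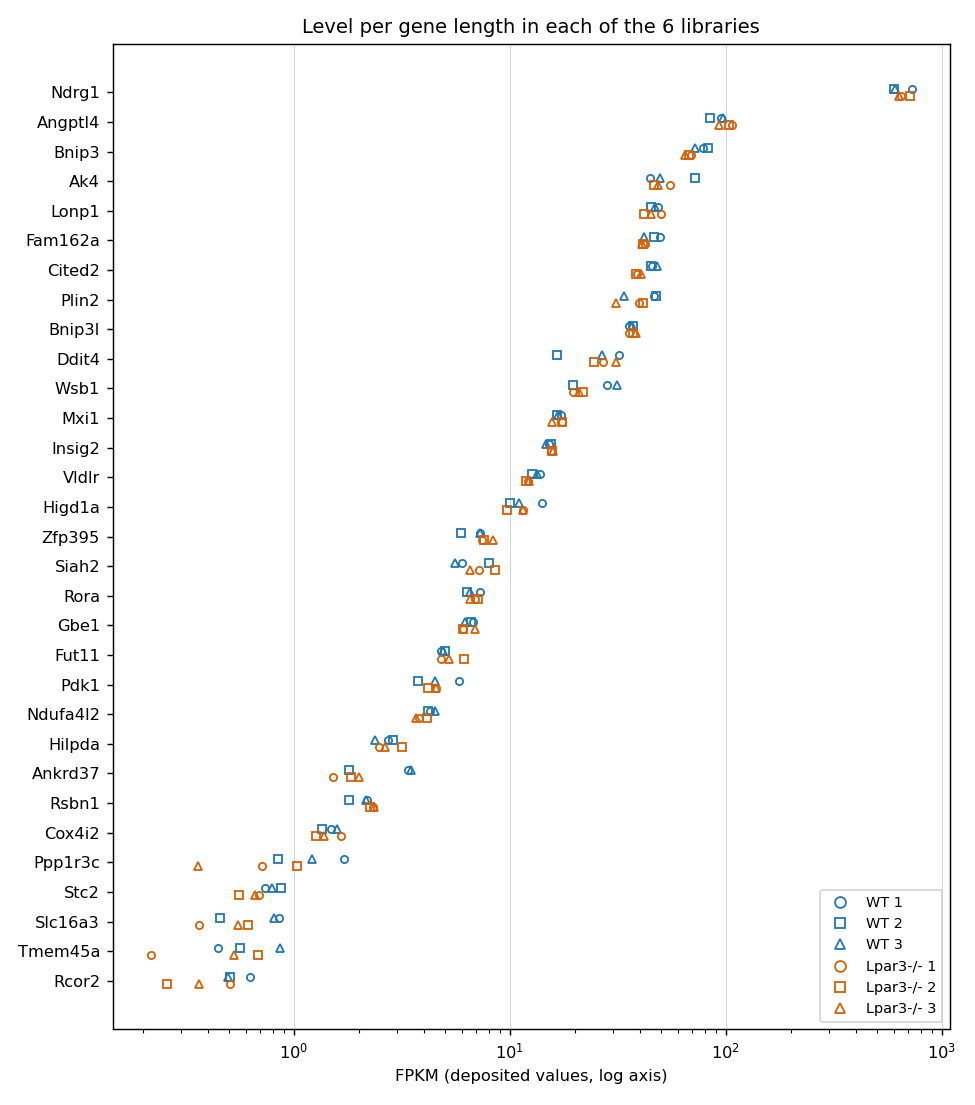
Deposited FPKM (log axis) of the 31 HIF targets in each library, ordered by mean level; blue symbols are WT, orange symbols the libraries labelled Lpar3-/-, and the shape gives the replicate. Ndrg1 has a mean of 654 FPKM over the 6 libraries, apart from the rest, and for most genes the colours overlap.

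Of the mitophagy receptors, Bnip3 was lower without overlap in the libraries labelled Lpar3-/- and Bnip3l was level; neither passed the test, and the difference between them was not tested. Bnip3 and Bnip3l sit in the outer mitochondrial membrane and bind the LC3-family proteins that draw a mitochondrion into an autophagosome. Bnip3 (ENSMUSG00000078566, GRCm38 chromosome 7, 138890836 to 138909519, minus strand) had 179, 189 and 165 CPM in WT replicates 1 to 3 and 157, 154 and 147 CPM in the libraries labelled Lpar3-/-. All 3 WT libraries lay above all 3 of the other group, as for 13.7% of all genes tested in either direction. The means were 178 ± 12.3 and 153 ± 4.99 CPM, a log2 fold change of -0.21 (SE 0.072, edgeR unadjusted p = 0.0120, adjusted p = 0.349). An exon of Bnip3 overlaps an antisense gene model, Gm45507, and strandedness of the counting is not given. Exons of Fam162a, Higd1a, Ndufa4l2, Ndrg1, Mxi1, Ankrd37, Rora and Rsbn1 also overlap genes on the opposite strand. Bnip3l had 139, 145 and 143 CPM in WT and 138, 145 and 150 CPM in the other group, and these ranges overlapped. Its log2 fold change was 0.020 (95% interval -0.12 to 0.16), so a change past about 1.12-fold in either direction lies outside the interval. Bnip3l has a named pseudogene copy with 1063 counts over the 6 libraries, which may share reads with it. Per gene length, Bnip3 stood at 212% ± 14.6 of Bnip3l in WT and at 181% ± 13.1 in the libraries labelled Lpar3-/-.

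The other mitochondrial membrane proteins overlapped between the groups. Fam162a, a mitochondrial protein linked to hypoxic cell death, ran from 35.8 to 42.6 CPM in WT and from 35.0 to 36.2 CPM in the other group (log2 fold change -0.15, 95% interval -0.33 to 0.033). Higd1a, an inner membrane protein of respiratory chain assembly, ran from 30.8 to 43.1 CPM and from 29.8 to 35.4 CPM (log2 fold change -0.11). Its highest value was in WT replicate 1. Among 14 tested genes of the general mitophagy machinery 0 were called by edgeR, DESeq2 or limma-voom and 0 had an unadjusted p below 0.05. Their median log2 fold change was -0.0082. Sqstm1, the cargo adaptor p62, had the lowest p of that list, with 831 ± 11.7 against 754 ± 8.69 CPM (log2 fold change -0.14, edgeR adjusted p = 0.560).

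The genes that retune respiration showed no shift that passed the test, and all 5 log2 fold changes were negative, from -0.18 to -0.040, as were 51.1% of those of all genes tested. For 4 of them, Cox4i2, Lonp1, Pdk1 and Ak4, the sign turned when 1 library was left out. Ak4, an adenylate kinase of the mitochondrial matrix, had 208, 338 and 232 CPM in WT and 256, 217 and 229 CPM in the other group. Its WT replicate 2 value was the highest of the 6, and without that library the log2 fold change turned from -0.15 to 0.089. Lonp1, the matrix protease that removes the normoxic form of cytochrome oxidase subunit 4, had 215, 198 and 208 CPM in WT and 220, 184 and 198 CPM in the other group. The ranges overlapped (log2 fold change -0.044, 95% interval -0.22 to 0.13). Pdk1, the kinase that closes the entry of pyruvate into the citric acid cycle, ran from 29.3 CPM in WT replicate 2 to 45.5 CPM in WT replicate 1, which enclosed the 32.8 to 35.9 CPM of the other group.

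Cox4i2 and Ndufa4l2 are the hypoxic counterparts of the respiratory subunits Cox4i1 and Ndufa4, and are known for expression in pericytes and other cells of the vessel wall. Both were minor forms here. Cox4i2 had 1.48 ± 0.125 FPKM in WT and 1.44 ± 0.198 in the libraries labelled Lpar3-/-, or 0.307% ± 0.0354 and 0.284% ± 0.0271 of Cox4i1. Ndufa4l2 had 4.74, 4.62 and 5.02 CPM in WT and 4.16, 4.53 and 4.05 CPM in the other group, so the groups did not overlap. Its log2 fold change of -0.18 had an SE of 0.18 (edgeR adjusted p = 0.851). Relative to Ndufa4 it ran from 1.43% to 1.76% in WT and from 1.27% to 1.41% in the other group, per gene length. An exon of Ndufa4l2 overlaps Shmt2 on the opposite strand. The summed level of the 13 pericyte and fibroblast markers ran from 432 to 622 CPM in WT and from 452 to 488 CPM in the other group, and none was at 0. Of these 13, 10 had negative log2 fold changes (median -0.19), and edgeR, DESeq2 and limma-voom called 0. By edgeR 3 had an unadjusted p below 0.05 (23.1%, against 9.18% of all genes tested), all lower (Notch3, Col1a1 and Kcnj8). Of 6 smooth muscle markers 5 were negative (median -0.46), and 0 were called by these tools. An unadjusted p below 0.05 was reached by 2 of the 6 (33.3%), Acta2 and Ren1, both lower. In whole kidney, fewer cells of a type and less RNA per cell cannot be told apart. The part of these cells in the Ndufa4l2 values was not tested.

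The lipid genes were split in direction, 2 negative and 3 positive, and none passed the test. Angptl4, a secreted inhibitor of lipoprotein lipase, had 314, 281 and 322 CPM in WT and 351, 341 and 309 CPM in the libraries labelled Lpar3-/-. WT replicate 2 was lowest and the ranges overlapped (log2 fold change 0.13, 95% interval -0.049 to 0.30). Plin2, the coat protein of lipid droplets, had 165, 168 and 120 CPM in WT and 139, 146 and 110 CPM in the other group. Replicate 3 was the lowest library of each group, and the log2 fold change was -0.20 (SE 0.13, edgeR adjusted p = 0.727). It ran from -0.080 without replicate 3 of the group labelled Lpar3-/- to -0.33 without WT replicate 3. Vldlr, a receptor for triglyceride-rich lipoproteins, ran from 129 to 141 CPM in WT and from 121 to 124 CPM in the other group without overlap. That difference was small, with a log2 fold change of -0.14 (SE 0.065, edgeR unadjusted p = 0.0522, adjusted p = 0.554). Insig2, which holds the sterol sensor SCAP in the endoplasmic reticulum, ran from 51.6 to 54.3 and from 54.0 to 55.6 CPM. Hilpda, an inhibitor of triglyceride breakdown, ran from 2.66 to 3.20 and from 2.73 to 3.53 CPM.

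Markers of fat cells moved between the same libraries. Of the 11 adipocyte markers 10 were tested, all 10 had negative log2 fold changes with a median of -1.40, and edgeR called 0, limma-voom 0 and DESeq2 2 (Plin1 and Retn). Of the 10, 9 had an unadjusted p below 0.05 by edgeR (90.0%, against 9.18% of all genes tested). The groups did not overlap for 6, all lower in the libraries labelled Lpar3-/- (60.0%, against 7.12%). The whole list summed to 6002 to 6146 CPM in WT and 4705 to 5684 CPM in the other group, most of it from Pck1, which kidney tubules express as well. Without Pck1 it summed to 421, 331 and 252 CPM in WT and to 186, 257 and 173 CPM in the libraries labelled Lpar3-/-. Adipoq and Plin1 were detected in all 6 libraries, and Ucp1 was at 0 in labelled Lpar3-/- replicate 3. Plin1, the droplet coat protein of fat cells, had 10.9, 7.46 and 6.23 CPM in WT and 2.56, 4.35 and 1.79 CPM in the other group (log2 fold change -1.51, edgeR adjusted p = 0.0641). The part of fat cells in the values of Plin2, Angptl4, Vldlr and the other lipid genes was not tested. Targets of PPAR alpha, a fatty acid sensor that also raises Angptl4, Plin2 and Vldlr, had a median log2 fold change of -0.049 over 15 tested genes, with 0 called by edgeR, DESeq2 or limma-voom and 1 at an unadjusted p below 0.05.

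**Figure D3:**
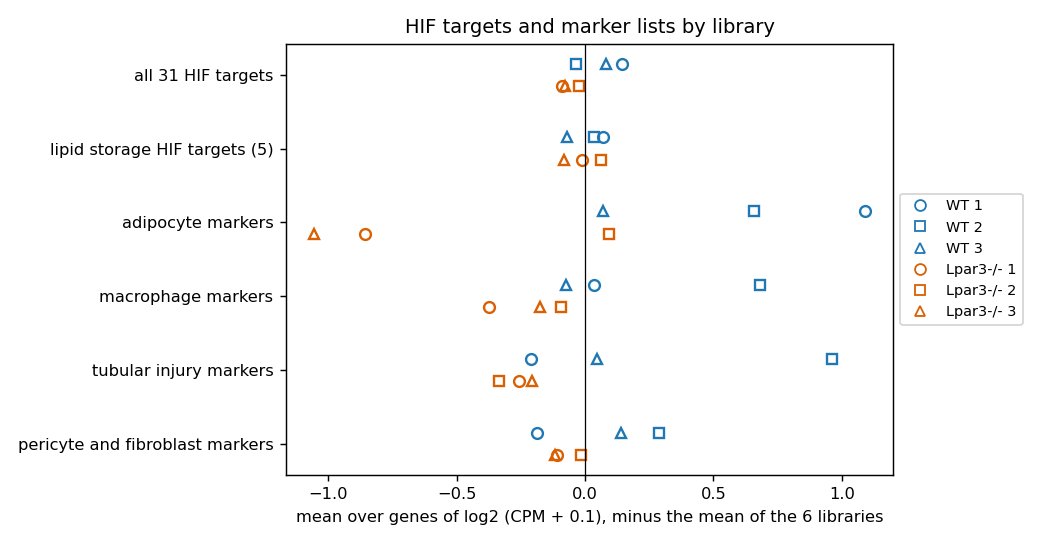
Mean log2 deviation of each library (x axis) from the mean of the 6 libraries, for the 31 HIF targets, the 5 lipid storage targets and 4 lists of cell type or injury markers; blue is WT and orange the libraries labelled Lpar3-/-. The HIF targets stay between -0.089 and 0.14, while adipocyte markers range from -1.06 to 1.09 and WT replicate 2 lies highest for injury and macrophage markers.

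Of the glycogen genes, Ppp1r3c had the largest fold difference of the 31 with all 6 libraries in edgeR, and neither gene passed the test. Ppp1r3c (ENSMUSG00000067279, chromosome 19, 36731737 to 36736653, minus strand) brings protein phosphatase 1 to glycogen and so favours its synthesis. It had 4.68, 2.31 and 3.33 CPM in WT and 1.94, 2.83 and 0.983 CPM in the other group, from 83, 39 and 55 against 34, 45 and 17 counts. WT replicate 2 and labelled Lpar3-/- replicate 2 overlapped. This came to -0.85 on the log2 scale (SE 0.37, 95% interval -1.66 to -0.038, edgeR unadjusted p = 0.0416, adjusted p = 0.519). It was smaller, at -0.56, without WT replicate 1 and at -0.53 without replicate 3 of the other group, with unadjusted p of 0.193 and 0.160, and there Ankrd37 differed more (-0.57 and -0.80). Gbe1, the glycogen branching enzyme, had 36.5, 35.7 and 33.7 CPM in WT and 32.7, 32.6 and 37.2 CPM in the libraries labelled Lpar3-/-. Its groups overlapped, with a log2 fold change of -0.048 (95% interval -0.23 to 0.13).

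Among the genes of growth and stress control, Cited2 had the lowest p of all 31. Cited2 (ENSMUSG00000039910, chromosome 10, 17723218 to 17725674, plus strand) encodes a HIF-induced protein that competes with HIF alpha for the coactivators CBP and p300. It had 113, 111 and 119 CPM in WT and 96.0, 95.03 and 101 CPM in the other group. Both groups were tight and did not overlap. The difference was 1.18-fold (log2 fold change -0.24, SE 0.065, 95% interval -0.38 to -0.093, edgeR unadjusted p = 0.00368), yet the adjusted p was 0.213. Over the alternatives it ranged from 0.165 to 0.617. Stc2, a secreted stress glycoprotein, also did not overlap, from 3.84 to 4.56 CPM in WT and from 2.90 to 3.59 CPM in the other group (log2 fold change -0.33, SE 0.21).

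The most abundant of the 31, Ndrg1, a growth-restraining gene of differentiated epithelium, had 4827, 3995 and 4065 CPM in WT and 4268, 4705 and 4238 CPM in the libraries labelled Lpar3-/-. The groups overlapped fully, and the log2 fold change was 0.036 (95% interval -0.16 to 0.23). Mxi1, an antagonist of MYC, ran from 93.7 to 97.7 CPM in WT and from 88.6 to 98.5 CPM in the other group (log2 fold change -0.0046). Ddit4, an inhibitor of the growth kinase complex mTORC1, had 56.4, 29.1 and 47.2 CPM in WT and 47.5, 43.5 and 54.7 CPM in the other group. WT replicate 2 was the lowest of the 6 for Ddit4. Its log2 fold change was 0.13, and without that library -0.094.

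**Figure D4:**
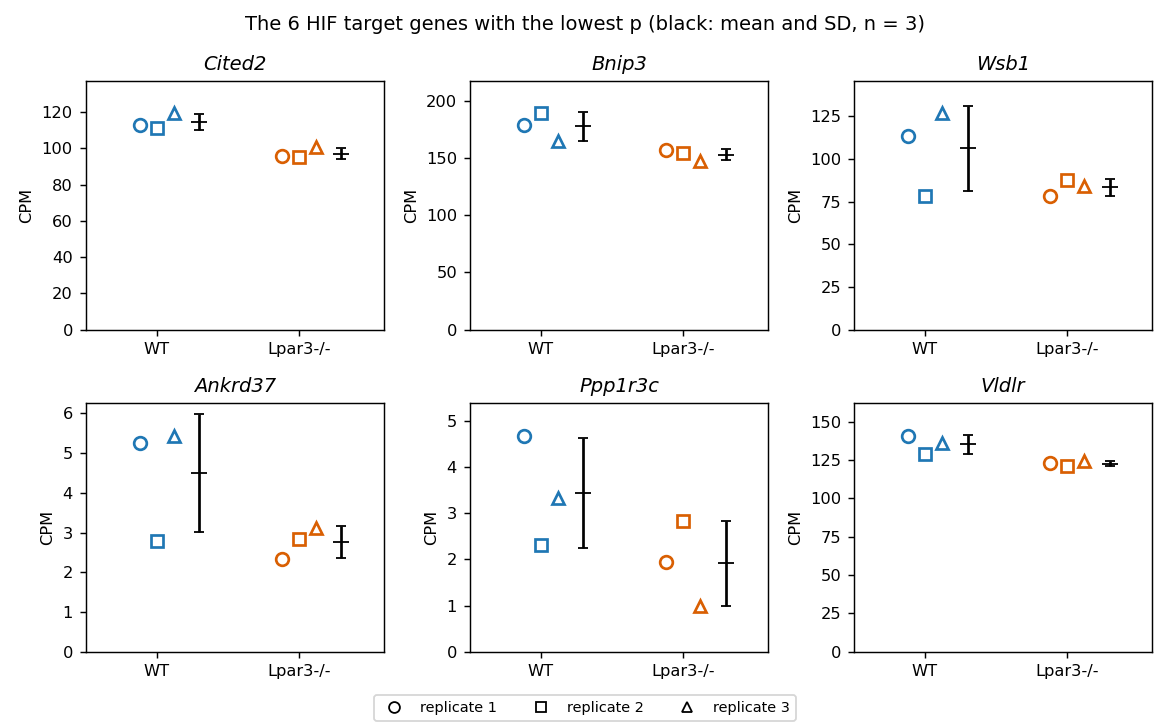
CPM (y axis, from 0) of the 6 HIF targets with the lowest p in each library of WT (blue) and of the group labelled Lpar3-/- (orange), with mean and SD in black. The groups do not overlap for Cited2, Bnip3 and Vldlr, while for Wsb1, Ankrd37 and Ppp1r3c WT replicate 2 (square) lies among the orange points.

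The ubiquitin ligase genes pointed in opposite directions. Wsb1 (ENSMUSG00000017677, chromosome 11, 79239372 to 79254671, minus strand) encodes a substrate-binding part of a ubiquitin ligase. It had 113, 78.5 and 127 CPM in WT and 78.2, 87.6 and 84.0 CPM in the libraries labelled Lpar3-/-. WT replicates 1 and 3 lay above the other group and WT replicate 2 lay inside it. This gave -0.35 on the log2 scale (SE 0.14, edgeR unadjusted p = 0.0253, adjusted p = 0.437). Without WT replicate 2 it was -0.53 and Wsb1 passed the test (adjusted p = 0.0123). It also passed with no filter on low counts (adjusted p = 0.00316), a fit that called 520 of 26645 genes, against 57 of 15225 in the main fit. Over the other alternatives the adjusted p was 0.273 to 0.789. Without WT replicate 3 the difference shrank to -0.20 (unadjusted p = 0.155), and without WT replicate 1 it was -0.30 (unadjusted p = 0.0747). Siah2, a ligase that degrades the prolyl hydroxylases, had 18.2, 24.1 and 17.0 CPM in WT and 21.7, 25.6 and 19.8 CPM in the other group. Replicate 2 was highest in each group, and the log2 fold change was 0.18 (SE 0.14).

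Genes of transcription and chromatin were split as well. Ankrd37 (ENSMUSG00000050914, chromosome 8, 45996902 to 46005707, minus strand), an ankyrin repeat gene strongly induced by HIF-1, had 5.25, 2.78 and 5.44 CPM in WT and 2.34, 2.83 and 3.12 CPM in the other group. As with Wsb1, WT replicate 2 fell inside the range of the other group while WT replicates 1 and 3 lay above it. On the log2 scale the difference was -0.70 (SE 0.28, edgeR unadjusted p = 0.0267, adjusted p = 0.443), and -0.95 without WT replicate 2 (adjusted p = 0.142). It was -0.54 without WT replicate 3 (unadjusted p = 0.111), -0.57 without WT replicate 1 (unadjusted p = 0.0967) and -0.45 by limma on log2(FPKM + 1). Exons of Ankrd37 overlap Lrp2bp and Ufsp2 on the opposite strand, so its few reads are uncertain. Rcor2, a corepressor partner of the demethylase LSD1, ran from 1.57 to 1.98 and from 0.819 to 1.595 CPM.

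The other 3 of this group had positive fold changes that did not pass the test. Zfp395, a zinc finger transcription factor, had 34.9, 28.2 and 35.0 CPM in WT and 35.1, 36.3 and 40.1 CPM in the libraries labelled Lpar3-/-. The groups just missed each other, with a log2 fold change of 0.19 (SE 0.099, edgeR adjusted p = 0.628). Rsbn1 also did not overlap, from 12.5 to 15.1 CPM in WT and from 15.6 to 16.3 CPM in the other group (log2 fold change 0.17, SE 0.11). Rsbn1 and Siah2 lie on chromosome 3, as Lpar3 does, 42.3 Mb and 87.5 Mb from it. Rora, a nuclear receptor of the circadian clock and lipid metabolism, had 96.4, 83.2 and 86.2 CPM in WT and 90.3, 94.0 and 86.0 CPM in the other group. Its ranges overlapped (log2 fold change 0.024, 95% interval -0.14 to 0.19).

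Of the membrane and Golgi genes, Slc16a3 encodes MCT4, which exports lactate. It had 4.57, 2.43 and 4.35 CPM in WT and 1.94, 3.27 and 2.95 CPM in the other group. Again WT replicates 1 and 3 were above the other group and WT replicate 2 inside it (log2 fold change -0.48, SE 0.29, edgeR adjusted p = 0.694). Fut11, a Golgi fucosyltransferase, had 20.7, 21.4 and 21.1 CPM in WT and 20.4, 26.3 and 22.4 CPM in the other group, with labelled Lpar3-/- replicate 2 highest (log2 fold change 0.13). Tmem45a, a transmembrane protein gene, ran from 1.41 to 2.72 and from 0.683 to 2.14 CPM.

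Counted over all 31, the libraries of the groups did not overlap for 7 (22.6%), against 13.7% of all genes tested. In 5 of them WT was higher (Bnip3, Cited2, Ndufa4l2, Stc2 and Vldlr, against 7.12% of all genes tested) and in 2 WT was lower (Rsbn1 and Zfp395, against 6.58%). The mean log2 deviation of the 31 genes from the mean of the 6 libraries was 0.14, -0.036 and 0.083 in WT replicates 1 to 3 and -0.089, -0.025 and -0.077 in the libraries labelled Lpar3-/-. By this mean WT replicate 2 lay inside the range of the other group. Each gene counts alike in it, so genes with few counts can carry it. Tmem45a deviated by 0.72 in WT replicate 3 and by -1.13 in labelled Lpar3-/- replicate 1. Ppp1r3c deviated by 0.93 in WT replicate 1 and by -1.22 in labelled Lpar3-/- replicate 3. Ndrg1, the most abundant, stayed between -0.12 and 0.15. A mean without the genes of low count was not taken. Within WT, replicate 2 was the lowest library for 18 of the 31 genes (58.1%), against 35.0% of all genes tested. WT replicate 1 was the lowest of the 6 libraries for 1 of the 31 (Ak4, 3.23%, against 14.6% of all genes tested) and the highest for 10 (32.3%, against 15.4%). The spread of log2 levels was wider in WT than in the other group for 19 of the 31 genes (61.3%), much as for all genes tested (60.7%).

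**Figure D5:**
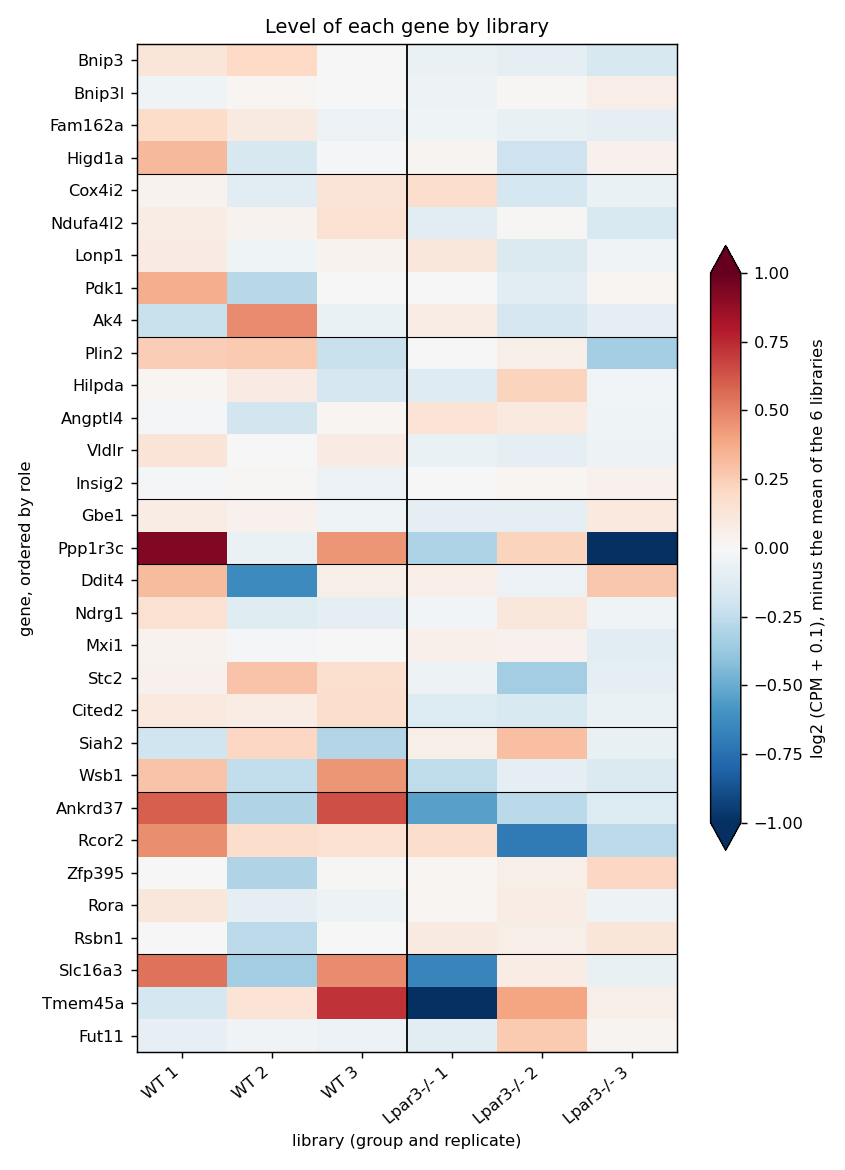
Level of the 31 HIF targets in the 6 libraries as log2 (CPM + 0.1) minus the mean of the 6, with WT left of the line and genes grouped by role. WT replicate 2 is low for Ddit4, Wsb1, Ankrd37 and Slc16a3 and high for Ak4, and colours outside the scale are clipped at 1.

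Of 58 other genes of the pathway in 5 lists, edgeR called 2 (3.45%, against 0.374% of all genes tested), Epo and Hmox1, both lower. DESeq2 called 5 (8.62%, against 1.18%), namely Epo, Hmox1, Kdm3a, P4ha1 and Ldha, and limma-voom called 1, Epo (1.72%, against 0.361%). An unadjusted edgeR p below 0.05 was reached by 16 (27.6%, against 9.18%), 13 of them lower, and 36 of the 58 had negative log2 fold changes (62.1%, against 51.1%). Among 10 HIF subunits and regulators 0 reached that p and 3 were negative, with a median of 0.019. Among 11 HIF-induced dioxygenases 3 (27.3%) reached it and 8 were negative, with a median of -0.069. Of 19 HIF-induced glycolytic genes 7 (36.8%) reached it and 15 were negative, with a median of -0.13. Of 12 vascular and acid-base genes 3 (25.0%) reached it and 6 were negative, with a median of 0.0090. In the 6 erythroid and iron genes 3 reached it and 4 were negative, with a median of -0.24. The 31 genes described here, with 5 at that p (16.1%), were not tested against these lists.

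The closest relatives of the 31, genes of the same families that are not counted here as HIF targets, served as a further comparison. Of 47 tested edgeR and limma-voom called 0, DESeq2 called 1 (Plin1), and 8 (17.0%) had an unadjusted p below 0.05, against 9.18% of all genes tested, and 16 had negative log2 fold changes with a median of 0.030. After Plin1, the lowest p values were those of Angptl2 (37.1 ± 6.57 against 27.6 ± 2.56 CPM) and of Pdk2, a pyruvate dehydrogenase kinase. Pdk2 had 384 ± 22.0 against 455 ± 13.1 CPM without overlap (log2 fold change 0.24, edgeR adjusted p = 0.260). Cox4i1 and Ndufa4, the partners of Cox4i2 and Ndufa4l2, had log2 fold changes of 0.056 and 0.045.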

How the data were processed

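Polyadenylated kidney RNA was sequenced from 3 WT libraries and 3 labelled Lpar3-/-. Per the submitters' processing notes the build was GRCm38 and the tools named are DESeq2 1.20.0, featureCounts 1.5.0-p3 and HISAT2 2.0.5. The sources used here give no strand setting, annotation release or rule for reads matching several genes. The deposited counts are raw reads per gene. The FPKM values were made by the authors, equal the counts over gene length and a library factor, and served for levels per length and 1 kind of alternative test. Rows without a gene name (377, at most 0.362% of a library) were left out.

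Sample titles gave the groups and replicate numbers. Genes were tested in edgeR 4.0.16 (R 4.3.3) by its quasi-likelihood F-test on all 6 libraries, after TMM normalization and the default expression filter, with Benjamini-Hochberg adjustment over 15225 genes. SE values derive from the fold change and F. CPM uses TMM-scaled library sizes. Other fits used DESeq2 1.42.0, limma-voom (limma 3.58.1), RLE or upper quartile normalization, no filter, a stricter filter (a minimum of 10 counts in 3 libraries, mean CPM from 1), a replicate block, omission of single libraries, and limma with FPKM on the log2 scale at pseudocounts of 1 or 0.1.

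In simulated counts for 15012 genes edgeR found 58.5% of the 1.5-fold changes, 68.3% of the 2-fold and 92.7% of the 4-fold changes, and 8 of 148 calls were false. In these counts each gene varied on its own, with no library effect beyond library size, and changed genes were drawn over all levels. Such rates were not taken for the 31 genes. The 31 genes, the comparison lists and the rule for named genes were chosen with earlier results of these data known. By that rule, values in every library are given for genes with an unadjusted p under 0.05 and for the 2 most abundant of each role. Values of Ddit4, Ndufa4l2 and Plin1 were added, and Sqstm1, Angptl2 and Pdk2 picked for their low p, after the values were seen. Exon overlaps are from GENCODE M21, on GRCm38.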

Additional observations from a re-analysis of the deposited data

How the results depend on the processing

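Over 15 alternative fits the count of HIF targets called stayed at 0, except for 1 (Wsb1) with no filter on low counts (log2 fold change -0.35, edgeR adjusted p = 0.00316, 520 of 26645 genes called) and 1 (again Wsb1) without WT replicate 2. With no filter the SEs of Bnip3, Ak4 and Plin2 all came to 0.083, against 0.072, 0.15 and 0.13 in the main fit. The number with negative fold changes ran from 17 to 22 and the median from -0.11 to -0.022. In all, 57 genes were called by edgeR, 179 by DESeq2, 9 and 13 by limma on log2 FPKM with pseudocounts of 1 and 0.1, and 12 to 149 with a library left out (0 or 1 HIF target); the cause was not tested. The highest of these, 149, came on omitting WT replicate 1. Omitting replicate 1 or 3 of the group labelled Lpar3-/- left 12, and omitting its replicate 2 left 26. The sign held in every fit for 20 of the 31 genes. It changed in 16 of 465 single values, all with a library left out and none called. The log2 fold changes with a library left out ran from -0.0057 to 0.050 for Bnip3l, -0.21 to 0.047 for Higd1a, -0.15 to 0.038 for Cox4i2 (0.023 without WT replicate 3), -0.11 to 0.015 for Lonp1, and -0.22 to 0.10 for Pdk1. They ran from -0.28 to 0.089 for Ak4, -0.063 to 0.12 for Hilpda (-0.023 without WT replicate 3), -0.094 to 0.35 for Ddit4, -0.014 to 0.13 for Ndrg1, -0.030 to 0.047 for Mxi1 (0.014 without WT replicate 1) and -0.020 to 0.090 for Rora (-0.0070 on omitting replicate 2 of the other group). Same-numbered libraries of the groups deviated little together over the genes tested (r = 0.011, 0.031 and 0.067). For libraries of unlike number r ran from -0.075 to 0.042. Such an r cannot show whether the numbers pair the libraries for some genes. With the block the SE of Plin2 was 0.066, against 0.13 in the main fit (edgeR unadjusted p = 0.0169, adjusted p = 0.370). With the replicate block edgeR called 80 genes and 0 of the 31, of which 20 were negative with a median of -0.067. A library left out moved the value by over 1.5 times for 24 of the 31 genes, those 11 and Fam162a (-0.21 to -0.087), Plin2 (-0.33 to -0.080), Angptl4 (0.068 to 0.18), Gbe1 (-0.11 to -0.015), Ppp1r3c (-1.23 to -0.53), Siah2 (0.073 to 0.35), Wsb1 (-0.53 to -0.20), Rcor2 (-0.79 to -0.32), Zfp395 (0.091 to 0.24), Rsbn1 (0.091 to 0.22), Slc16a3 (-0.72 to -0.28), Tmem45a (-0.73 to -0.043) and Fut11 (0.023 to 0.21). Counts were under 100 in every library for 9 genes, Cox4i2, Ndufa4l2, Hilpda, Ppp1r3c, Stc2, Ankrd37, Rcor2, Slc16a3 and Tmem45a.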
